A study of Danio rerio with 8 samples.

Results

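Liver RNA of zebrafish (Danio rerio) labelled 1 µM cadmium at day 28 was compared with liver RNA of zebrafish labelled 0 µM cadmium at day 28. Each dose had 2 RNA samples, so the comparison took 4 of the 7 RNA samples of the series, chosen by the dose and day in the labels. The other 3 were 2 samples of 5 µM cadmium at day 28 and 1 of 0 µM at day 4, and they entered the fit that placed all samples on 1 scale. The RNAs were extracted with Trizol and hybridised in pairs to 8 Agilent 2-colour arrays arranged as a loop. The labels give the exposure only as a concentration, a day and a replicate number. The series text calls samples of one dose biological replicates. It does not say how many fish gave an RNA, and the labels give no age, sex, strain or route of exposure. Choosing probes for a custom array was the stated purpose of the series.

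The metal has no known role in vertebrates and is stored largely in liver and kidney. It binds thiol groups, and liver cells hold it in metallothioneins, small cysteine-rich proteins whose genes are switched on by the metal-sensing factor MTF-1. Glutathione, its synthesis enzymes and the antioxidant enzymes form the next line of defence, and misfolded proteins call up chaperones. In fish, cadmium is also studied for effects on oestrogen signalling, which in females drives the liver to make the egg yolk precursors called vitellogenins.

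The data were 1 deposited log2 ratio per probe and array for 43603 probes, of which 23717 carried 1 gene, from 15554 genes, and 19886 had no gene name here. The ratios were turned into 1 level per probe and RNA sample, in log2 units relative to the mean of the 7 RNA samples. A value of 1 is thus 2-fold above that mean. The level of a probe says how RNA samples rank for that probe, and says nothing of one probe against another. For the same reason the labelled tissue could not be checked by whether liver markers were present, only by how they varied. The direction of the ratios, taken as red over green from the order of their titles, is likely but not stated. Every difference would change its sign if it were the opposite. The arrays that set 1 against 0 µM directly ran against each other over all probes. Whether the labels of one of them, 1 µM replicate 2 over 0 µM replicate 1, are right could not be settled from the files. All values of 1 against 0 µM rest in part on that array. Those of some of the named genes are given without it, or with its RNAs exchanged, after the other results.

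No probe differed between 1 and 0 µM at an adjusted p under 0.05 in limma (0 of 43603, 0%). The smallest adjusted p was 1.00, and 573 probes (1.31%) had an unadjusted p under 0.05, of which 317 were higher and 256 lower at 1 µM. A limma fit that took the arrays as nearly independent also called 0 probes, with 2209 at an unadjusted p under 0.05 and a smallest adjusted p of 0.0777, that of elovl2. The median change over all probes was 0.00 and the median standard error (SE) of a change was 0.07 on the log2 scale. The 95% interval of the change lay inside 2-fold either way for 39432 probes (90.4%) and inside 1.5-fold for 35658 probes (81.8%). The SEs and intervals here and below take the fitted levels as independent samples. Since the levels share arrays and a dye term, the intervals are approximate. A fold of 2 or more was reached by 55 probes (0.126%) that were higher and 194 (0.445%) that were lower at 1 µM. Both 1 µM levels lay above both 0 µM levels for 5376 probes (12.3%) and below both for 4920 (11.3%).

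RNA samples of the same dose differed about as much as samples of different doses. The root mean square difference over all probes was 0.302 between the 1 µM replicates and 0.35 between the 0 µM replicates. Between doses it was 0.304 for the pair of replicates 1 and 0.303 for the pair of replicates 2. It was smallest, at 0.213, for 1 µM replicate 2 against 0 µM replicate 1, and largest, at 0.357, for 1 µM replicate 1 against 0 µM replicate 2. The change from replicate 1 to replicate 1 and that from replicate 2 to replicate 2 had a Pearson correlation of -0.223 across probes. These changes share no RNA sample, but their levels come from the same loop of arrays and dye term. They had the same sign for 38.5% of probes.

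**Figure D1:**
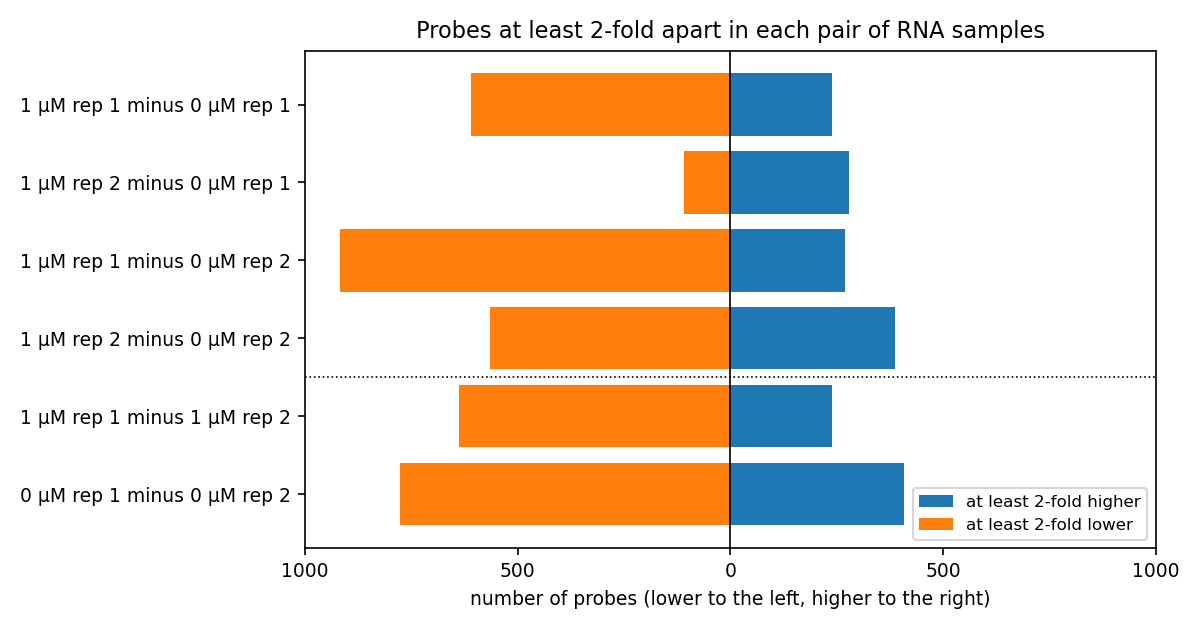
Number of probes at least 2-fold lower (left) or higher (right) in the first-named RNA sample of each pair, on a linear axis. The pairs above the dotted line set 1 against 0 µM and those below it set replicates of 1 dose against each other. The 0 µM replicates were separated by 777 lower and 409 higher probes, and the pairs of different doses ranged from 110 to 917 lower and from 239 to 387 higher probes.

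Of the 194 probes at least 2-fold lower at 1 µM, 0 µM replicate 2 was the highest of the 4 samples in 142 and 1 µM replicate 1 the lowest in 156. Against 0 µM replicate 1 alone 74 of the 194 were still at least 2-fold lower, and 43 were so against each 0 µM replicate taken alone. With 1 RNA sample left out, the count of lower probes was 595 without 0 µM replicate 1, 221 without 0 µM replicate 2, 134 without 1 µM replicate 1 and 638 without 1 µM replicate 2. The count of higher probes was then 214, 169, 167 and 124 in the same order. Of the 55 higher probes, 31 were at least 2-fold higher against 0 µM replicate 1 alone and 14 against each 0 µM replicate. In the fitted levels, 3 probes had a 2-fold difference in all 4 pairs of a 1 µM and a 0 µM sample, all lower. One measures fosab, and the others zgc:173556 and zgc:162730, for which no role is given here. The array of 1 µM replicate 2 over 0 µM replicate 1 itself read -1.59 for fosab, 0.85 for zgc:173556 and -0.05 for zgc:162730. For zgc:173556 and zgc:162730 the difference in that pair thus came from the fit of the loop and its dye term.

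Genes were named by a rule, the 10 in each direction with the smallest p among probes whose doses did not overlap, so that lack of overlap on the named probe is no finding. The largest change among the 10 lower ones was that of the immediate early gene fosab. It encodes a Fos protein, which joins Jun proteins to form the transcription factor AP-1. The array carries 5 fosab probes, and on all 5 both 1 µM samples lay below both 0 µM samples. The share over all probes was 11.3%. The named probe is among the 5, and all of them measure 1 gene in the same RNAs, so they are not separate support. On the probe with the smallest p the 0 µM samples stood at 0.38 and 0.29 and the 1 µM samples at -0.97 and -0.61. The log2 change was -1.12 ± 0.13 (SE, 2 RNA samples a dose), which is 2.18-fold lower at 1 µM, with an adjusted p of 1.00 in limma. The 1 µM replicate 1 was the lowest of the 4 samples on this probe, and 1 µM replicate 2 on the other probes.

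The other fosab probes differed in size but not in order. The largest change was -1.44 ± 0.20, with levels of 0.51 and 0.29 at 0 µM and -0.79 and -1.29 at 1 µM. A further probe gave -1.26 ± 0.23, and the remaining pair gave -0.39 ± 0.13 and -0.11 ± 0.06. At 5 µM fosab stood where it stood at 0 µM, with levels of 0.30 and 0.32 on the first probe. The difference of 5 from 1 µM was 1.1 on that probe, with an adjusted p of 1.00 in limma, so the doses were not separated by the test over all probes. For comparison, 0 probes passed that test of 5 against 1 µM, and 795 had an unadjusted p under 0.05.

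Immediate early transcripts, which respond to growth and stress signals within minutes, were read from a list of 23 genes with 33 probes. The list holds fosab and was written after the values were seen. Of the 33 probes, 0 passed the test, and 7 (21.2%) had 1 µM levels below both 0 µM levels and 2 (6.06%) above, against 11.3% and 12.3% of all probes. Of the 7, 5 measured fosab, which the naming rule had already picked, and the others dusp1. The 21.2% is thus no result separate from fosab. The list's median change was -0.08, against 0.00 for all probes. The phosphatase dusp1, which switches off MAP kinases, had levels of 0.15 and 0.48 at 0 µM and -0.56 and -0.13 at 1 µM on its probe with the larger change, -0.66 ± 0.18. Its second probe changed by -0.19 ± 0.08. The fos paralogue fosb gave changes between -0.08 and 0.00 on 3 probes.

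Of the Jun partners, jun changed by 0.04 ± 0.12. The transcripts junba and junbb were high in a single 0 µM sample. For junbb the 0 µM samples stood at 1.23 and -1.36 and the 1 µM samples at -0.33 and -0.89, so the 0 µM replicates lay on either side of both 1 µM samples. Egr1, another early factor, changed by -0.08 ± 0.09.

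**Figure D2:**
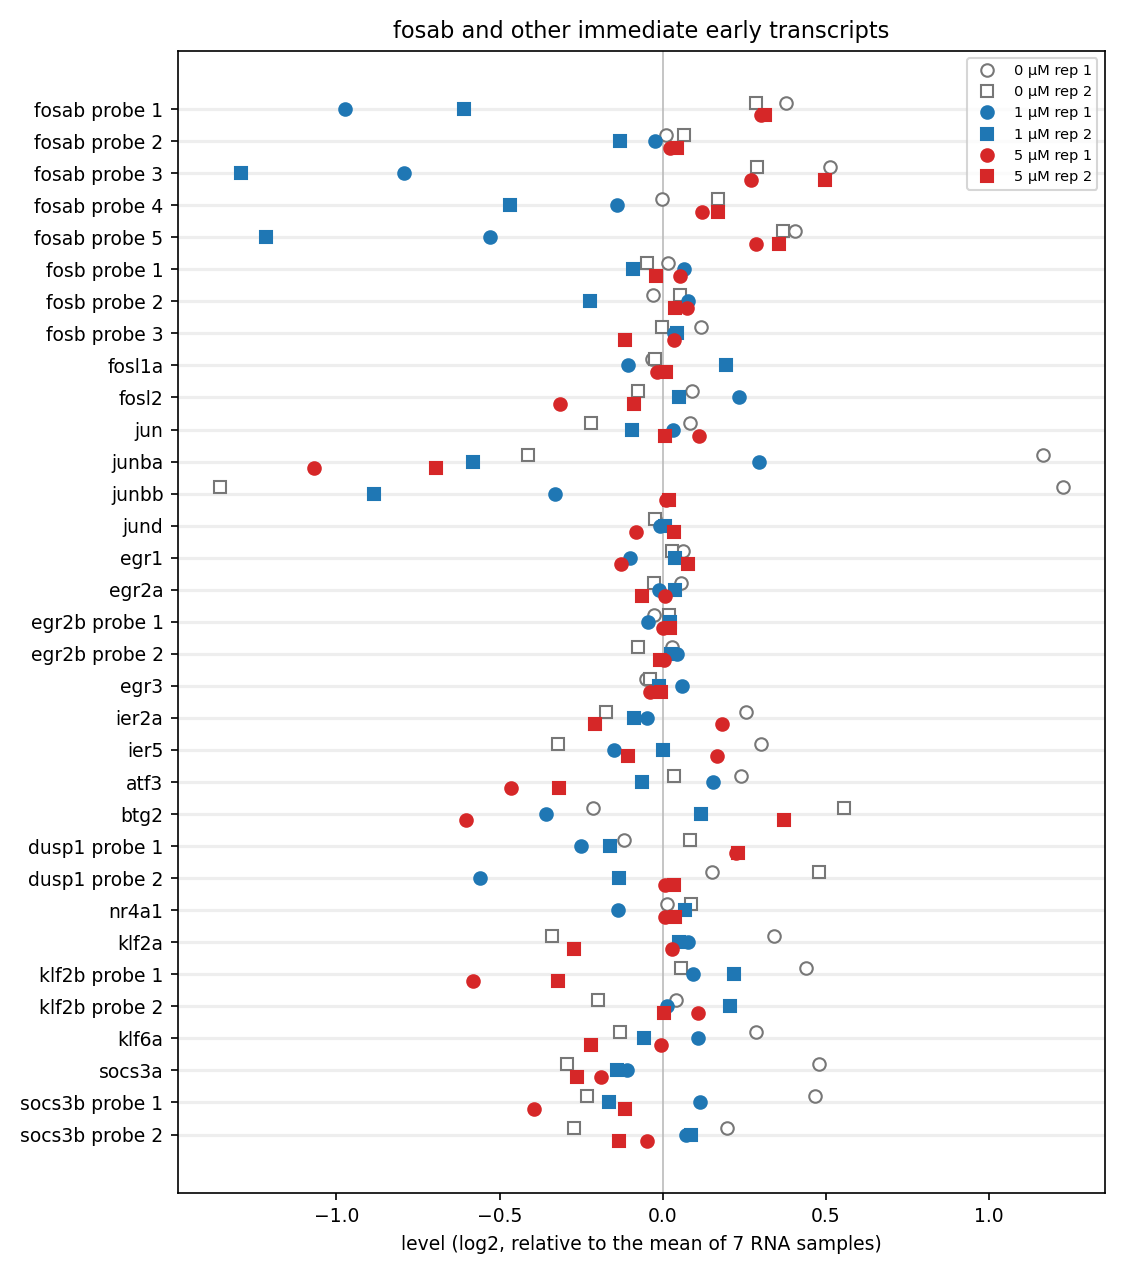
Levels of the 33 probes of immediate early genes in the 6 RNA samples of day 28, in log2 units relative to the mean of 7 RNA samples, with 1 point per sample, coloured by dose and shaped by replicate. On the 5 fosab probes the 1 µM samples lie left of the others, while junba and junbb reach 1.17 and 1.23 in 0 µM replicate 1 only.

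The second largest change among the 10 lower genes was that of zfp36l1b, one of the zinc finger proteins that in mammals bind AU-rich elements and promote decay of unstable mRNAs. It had levels of 0.47 and 0.51 at 0 µM and -0.47 and -0.74 at 1 µM. Its change was -1.10 ± 0.10, and it stood in between at 5 µM, at 0.12 and 0.16. Its paralogue zfp36l1a was higher on the probe that the naming rule picked, with -0.16 and -0.11 at 0 µM and 0.15 and 0.14 at 1 µM, a change of 0.28 ± 0.04. The 5 zfp36l1a probes ranged from 0.00 to 1.00. Of them, 3 were higher at 1 µM without overlap between doses, a share of 12.3% over all probes. The picked probe is among the 3, and probes of 1 gene in the same RNAs are not separate support. A ubiquitin ligase of the CCR4-NOT complex, cnot4b, had levels of 0.36 and 0.35 at 0 µM against -0.04 and -0.06 at 1 µM. Its change of -0.41 ± 0.05 was matched by -0.38 ± 0.14 on its second probe. None of these passed limma's test, with adjusted p of 1.00.

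Fatty acid and lipid genes gave the highest named transcript. Elovl2 lengthens polyunsaturated fatty acids on the way to docosahexaenoic acid. Its single probe had levels of -0.53 and -0.51 at 0 µM and 0.46 and 0.63 at 1 µM. The change was 1.07 ± 0.08, or 2.10-fold, with an adjusted p of 1.00 in limma and 0.0777 in the array fit. The array fit takes arrays that share RNA samples as nearly independent, so its p makes little allowance for the shared RNAs. Both arrays that set 1 against 0 µM directly gave it as higher, by 1.1 and 1.2. These arrays share 1 µM replicate 2 and entered the fit by which elovl2 was picked, so they are not separate support. The 5 µM samples stood at 0.44 and 0.33, a difference from 1 µM of -0.16.

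The other genes of fatty acid elongation and desaturation did not share one direction. A list of 16 genes of these steps, elovl2 among them, was written after the values were seen and held 26 probes with a median change of 0.04. Of these, 0 passed the test, 7 (26.9%) had 1 µM levels above both 0 µM levels and 2 (7.69%) below, against 12.3% and 11.3% of all probes. The 7 include the elovl2 probe, which the naming rule picked for this. The desaturase fads2, which acts next to elovl2 in the same route, changed by 0.63 ± 0.53 and 0.58 ± 0.33 on its probes. The elongase elovl5 gave 0.05 ± 0.33, 0.20 ± 0.09 and 0.55 ± 0.22. Elovl6l changed by -1.94 ± 0.95, but its levels of 0.08 and 1.76 at 0 µM and -2.15 and 0.11 at 1 µM overlapped.

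Lpin1a, a phosphatidate phosphatase of triglyceride synthesis, was lower at 1 µM, with 0.37 and 0.36 at 0 µM and -0.45 and -0.55 at 1 µM. The change was -0.86 ± 0.13 on that probe and -0.16 ± 0.15 on the other, where the doses overlapped. At 5 µM its first probe stood at 0.55 and 0.17. The mitochondrial uncoupling protein transcript ucp1 was lower on both its probes. The first gave 0.48 and 0.61 at 0 µM and -0.26 and -0.60 at 1 µM, a change of -0.98 ± 0.14. The second gave 1.43 and 0.58 against -0.69 and 0.13, a change of -1.29 ± 0.40. Both 5 µM samples were low too, at -0.43 and -0.63 on the first probe. The 1 and 5 µM comparisons share the 0 µM samples.

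Among broader lipid genes, the lipoprotein component apoa1a had levels of 0.66 and 0.96 at 0 µM and 0.18 and -0.64 at 1 µM. Its change was -1.04 ± 0.40 and did not pass the test. The lipid list of 7 genes and 9 probes had 0 calls and a median change of 0.01. The probes of scd, acaca, cpt1aa and ppargc1a, which serve fatty acid synthesis and oxidation, lay between -0.13 and 0.09.

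The remaining named genes belong to several routes. Oaz2a encodes an antizyme, which restrains polyamine synthesis. It read 0.56 and 0.53 in the 0 µM and -0.16 and -0.20 in the 1 µM samples, and the change of -0.72 ± 0.05 had the smallest p of all probes, 5.8e-05 before adjustment. The direct arrays differed for it, at -0.19 and -1.30, and over the settings run the change ranged from -1.20 to -0.018. The SE does not reflect this, since it comes from the spread of fitted levels within doses. The other oaz2a probes gave -0.63 ± 0.52 and 0.02 ± 0.04. Ncoa4, which in mammals carries ferritin to lysosomes, changed by -0.53 ± 0.07 on 1 probe. On its other probe it changed by -0.19 ± 0.19 and the doses overlapped. Atp6v1h, a subunit of the lysosomal proton pump, changed by -0.37 ± 0.05 on 1 probe and by 0.02 on the other. Pnp4b, a purine nucleoside phosphorylase, changed by -0.61 ± 0.10 on 1 probe and by -0.39 ± 0.46 on the other, where the doses overlapped. The transcript zgc:77439 was lower on all 3 of its probes without overlap, a share of 11.3% over all probes, at most by -0.84 ± 0.11. The probe picked by the rule is among the 3. Another was apart by little, at -0.13 in 1 µM replicate 2 against -0.12 in 0 µM replicate 1.

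On the higher side, tcn2, a carrier of vitamin B12, had levels of -0.19 and -0.26 at 0 µM and 0.22 and 0.36 at 1 µM, while 5 µM stood at -0.12 and -0.18. Taldo1, transaldolase of the pentose phosphate pathway, changed by 0.88 ± 0.12 on 1 probe and by -0.01 ± 0.06 on the other. Grb2b, an adaptor between growth factor receptors and Ras, changed by 0.62 ± 0.08. The nucleotide enzymes nme2b.1 and nt5c2b changed by 0.46 ± 0.07 and 0.44 ± 0.07, and cdc42ep5, an effector of the small GTPase Cdc42, by 0.43 ± 0.06. On each of these probes the doses did not overlap. The second probes of nme2b.1 and nt5c2b and the other 3 of cdc42ep5 overlapped between doses. The direct arrays, against 0 µM replicate 2 and replicate 1 in that order, differed for some named probes. They read 0.90 and -0.02 for nt5c2b, 0.28 and 1.15 for grb2b and 0.43 and 1.55 for taldo1. Of the 10 higher genes, 9 had the same sign on both, nt5c2b being the exception. As for oaz2a, the SEs do not reflect such differences between arrays.

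Amy2al1, an amylase of the exocrine pancreas, changed by 0.77 ± 0.12, with -0.47 and -0.80 at 0 µM and 0.17 and 0.10 at 1 µM. The direct arrays read 1.35 against 0 µM replicate 2 and 0.13 against 0 µM replicate 1, a difference that the SE does not reflect. Zebrafish pancreas lies beside and partly within the liver, and other pancreatic transcripts were uneven within doses. Trypsin prss1 had levels of -0.33 and 0.97 at 0 µM and -1.40 and 1.68 at 1 µM, and amylase amy2a -1.46 and 1.44 at 0 µM and -0.14 and 0.03 at 1 µM. The pancreas list of 5 genes and 6 probes had median levels of -0.06 and 0.42 at 0 µM and -0.63 and 0.32 at 1 µM, with 0 calls. Its median change was -0.18, and -0.71 without the array of 1 µM replicate 2 over 0 µM replicate 1. Whether pancreatic tissue played a part in the amy2al1 difference was not tested. In whole-tissue RNA, a change in the number of cells of a type and a change in RNA per cell cannot be told apart.

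**Figure D3:**
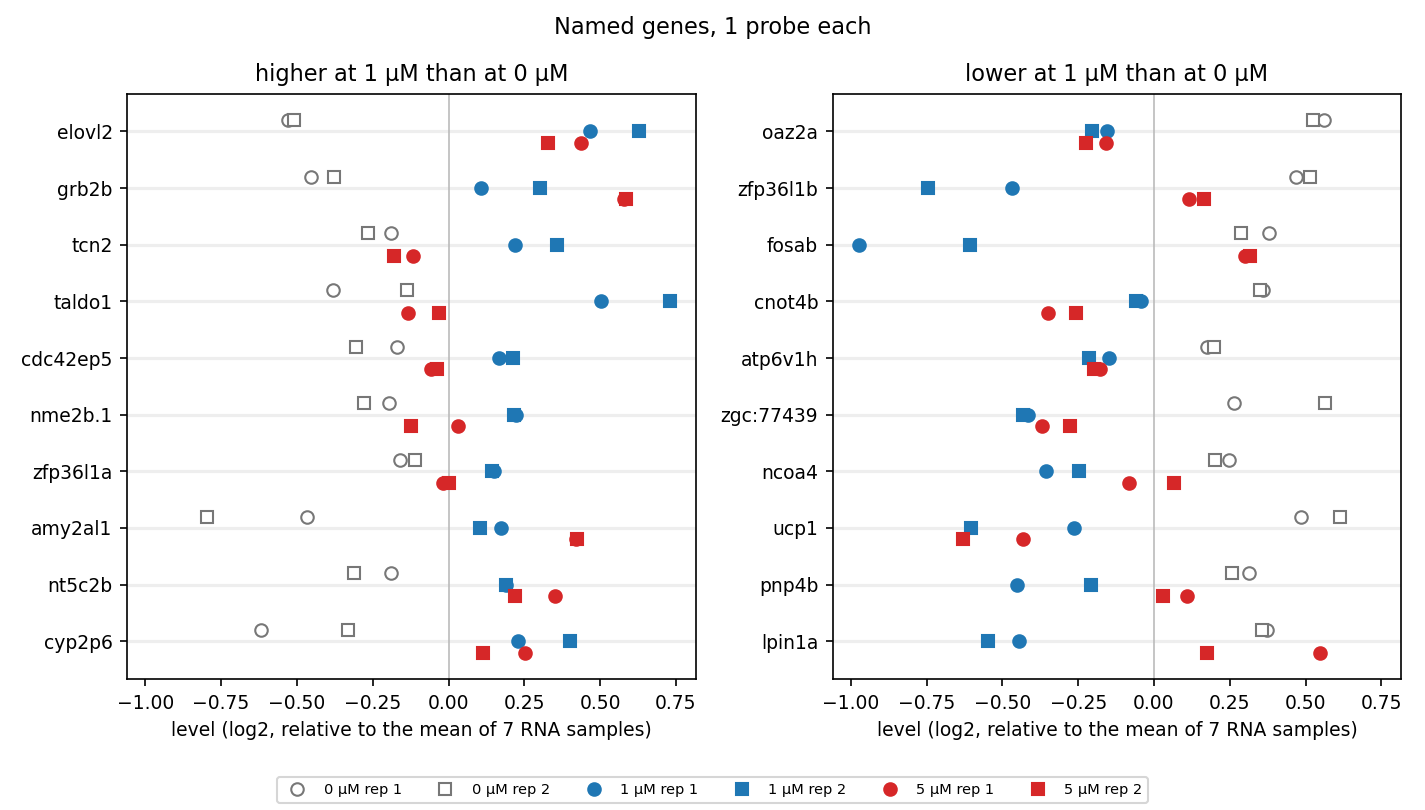
Levels of the 10 named genes with higher (left panel) and the 10 with lower (right panel) levels at 1 than at 0 µM, on the probe with the smallest p, in log2 units relative to the mean of 7 RNA samples. Each point is 1 RNA sample. The 1 and 0 µM points do not overlap because the rule chose such probes, and the 5 µM points of fosab and lpin1a fall with 0 µM while those of elovl2 and ucp1 fall with 1 µM.

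Cytochromes P450 of families 2 and 3 oxidise drugs and lipids, and their probes differed in direction. Cyp2p6 had levels of -0.62 and -0.33 at 0 µM and 0.23 and 0.40 at 1 µM, a change of 0.79 ± 0.13, and its other probes gave 0.53 ± 0.14 and 0.10 ± 0.24. Cyp2p9 stood at -0.63 and -0.45 at 0 µM and at 0.30 and 0.49 at 1 µM, a change of 0.94 ± 0.17. Genes of such families can share probe sequence, so cyp2p6 and cyp2p9 may not be separate measurements. Cyp2ad3 changed by 0.84 ± 0.22, 0.35 ± 0.33 and -0.18 ± 0.50 on its 3 probes. Cyp2r1, the vitamin D 25-hydroxylase, was lower, with 0.11 and 0.68 at 0 µM and -0.84 and -0.35 at 1 µM, a change of -0.99 ± 0.26.

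Over the 35 family 2 and 3 genes with 49 probes, a list written after the values were seen, 0 probes passed the test. The median change was 0.06. Of the 49, 11 (22.4%) had 1 µM levels above both 0 µM levels and 3 (6.12%) below, against 12.3% and 11.3% of all probes. The 11 include the cyp2p6 probe that the naming rule picked for this. An unadjusted p under 0.05 was reached by 4 higher probes and 1 lower, that of cyp2r1, and by 1.31% of all probes.

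Genes well known to respond to cadmium showed no 2-fold difference on the probes that measured them. Metallothionein mtbl had levels of -0.09 and 0.00 at 0 µM and 0.17 and -0.04 at 1 µM. Its change was 0.11 ± 0.11, with a 95% interval from -0.18 to 0.39. An increase of 2-fold lay outside that interval, which is approximate because the levels share arrays and a dye term. The second metallothionein probe, mt in the array annotation, changed by 0.01 ± 0.05, with an interval from -0.13 to 0.15. At 5 µM these probes stood at -0.17 and 0.03 for mtbl and at -0.06 and 0.00 for mt. The zinc exporter slc30a1a, a target of MTF-1, gave 0.13 ± 0.28, -0.04 ± 0.38 and -0.06 ± 0.43 on 3 probes. On the last of these the 0 µM replicates alone stood apart, at 0.70 and -0.38. The metal binding list named 9 genes, of which 3 had no probe here and so were not measured. Its 6 measured genes with 9 probes had 0 calls and a median of 0.00. The interval lay inside 2-fold for 7 of the 9 probes. It reached beyond 2-fold for the rest, so a change of that size is not excluded there.

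Glutathione and antioxidant genes gave 0 calls among 32 probes of 18 genes, and their median change was -0.015. In 8 of them (25%) both 1 µM levels lay below both 0 µM levels, against 11.3% of all probes, and in 4 (12.5%) above, against 12.3%. Mitochondrial superoxide dismutase sod2 had the smallest p, with 0.17 and 0.07 at 0 µM and -0.05 and -0.16 at 1 µM, a change of -0.23 ± 0.07. Haem oxygenase hmox1a, which degrades haem under oxidative stress, changed by -0.33 ± 0.42 and -0.41 ± 0.27. Catalase, which breaks down hydrogen peroxide, changed by 0.66 ± 0.37, with 0.48 and -0.56 in the 1 µM replicates. Chaperones gave 0 calls among 13 probes of 7 genes, and 0 of the 13 had doses that did not overlap. Over all probes the share without overlap was 12.3% higher and 11.3% lower at 1 µM. The inducible hsp70l changed by -0.06 ± 0.10. The endoplasmic reticulum chaperone hspa5 differed between 1 µM replicates by more than 1 log2 unit on each of its probes, at -0.49 and 1.21 on the first and 0.47 and -0.85 on the second.

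Hepatocyte markers of 5 genes and 12 probes had 0 calls and a median change of -0.09. That median was -0.44 without 0 µM replicate 1 and -0.47 without the array of 1 µM replicate 2 over 0 µM replicate 1. The iron carrier tfa was measured by 6 probes, of which 3 had 1 µM levels below both 0 µM levels, against 11.3% of all probes. Its probe with the smallest p stood at 0.18 and 0.40 at 0 µM and at -0.14 and -0.81 at 1 µM, a change of -0.77 ± 0.24. The fatty acid binding protein fabp10a, the defining hepatocyte transcript, varied without order by dose, at -0.29 and 0.59 at 0 µM and -0.10 and 0.94 at 1 µM. Markers of erythrocytes (2 probes), macrophages (4) and gut (3) had medians of -0.04, 0.01 and -0.11 and 0 calls.

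Most probes of a list of egg transcripts were highest in 1 control sample. A list of 28 oocyte genes with 47 probes, written after the values were seen, held egg coat proteins of the zp2 and zp3 families and germ cell factors such as zar1, dazl and gdf9. Its median level was 1.46 in 0 µM replicate 2, against -0.42 in 0 µM replicate 1 and -0.70 and -0.17 in the 1 µM samples. In 46 of the 47 probes 0 µM replicate 2 was the highest of the 4, against 23.5% of all probes. Because the list was written with the values in view, its shares beside those of all probes are no separate result. The list's median change was -0.78, and 17 of its probes (36.2%) were at least 2-fold lower at 1 µM, 17 of the 194 such probes in all. Against 0 µM replicate 1 alone the median was 0.06, with 4 probes at least 2-fold lower and 4 higher. Against 0 µM replicate 2 alone it was -1.91, with 35 at least 2-fold lower. In 10 of the 47 probes (21.3%) both 1 µM levels lay below both 0 µM levels, against 11.3% of all probes.

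Some egg coat transcripts had high fitted levels in both 0 µM samples. Zp3a.2 stood at 1.13 and 1.25 at 0 µM and at -1.12 and 0.58 at 1 µM, a change of -1.46 ± 0.57. A zp3 probe stood at 1.19 and 2.34 at 0 µM, with 1 µM levels of -1.99 and 1.70. Another egg coat transcript, zp2.1, had levels of -1.64 and 2.67 at 0 µM and -0.56 and -0.40 at 1 µM. The oocyte linker histone h1m reached 2.25 in 0 µM replicate 2 and -2.34 in 0 µM replicate 1 on its first probe. Zar1l was the exception with an unadjusted p under 0.05, at 0.71 and 1.72 at 0 µM against -1.65 and -0.12 at 1 µM, a change of -2.10 ± 0.70. The direct arrays, against 0 µM replicate 2 and replicate 1 in that order, had opposite signs for zp3a.2, the zp3 probe and zar1l. They read -2.06 and 0.83 for zp3a.2, -3.44 and 3.31 for the zp3 probe and -3.45 and 0.79 for zar1l. The levels of these probes thus depend on the fit and its dye term. Of the list, 0 probes passed the test. Between the 5 µM samples the median levels were -0.71 and 0.72.

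Vitellogenins, made by hepatocytes under oestrogen, followed another sample. Vtg5 had levels of -0.34 and -0.29 at 0 µM and -1.19 and 1.59 at 1 µM, a change of 0.51 ± 1.1. A vtg4 probe had -0.23 and -0.20 at 0 µM and -0.79 and 2.02 at 1 µM, a change of 0.83 ± 1.22. Vtg2 reached 0.77 in 1 µM replicate 2 and 1.93 in 5 µM replicate 1. The oestrogen receptor esr1 stood at -0.57 and 1.04 in the 1 µM replicates. The list of 5 genes and 7 probes had 0 calls and a median change of 0.51, but the difference between the 1 µM replicates was larger than that between doses for vtg4, vtg5 and esr1 on these probes. The median was 0.87 without 1 µM replicate 1, -0.44 without 1 µM replicate 2 and -0.21 without the array of 1 µM replicate 2 over 0 µM replicate 1.

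Of 45 heart muscle probes, 26 (57.8%) were lowest in 0 µM replicate 2, against 26% of all probes, while the median level there was -0.06. The cardiac myosin light chains myl7 and cmlc1 had levels of 0.59 and -2.37, and of 0.64 and -2.14, in the 0 µM replicates on their first probes. At 1 µM the same probes read 0.12 and 0.68, and 0.16 and 0.63. The list of 15 genes, also written after the values were seen, had a median change of 0.04. Its 57.8% is thus no separate result either. It supplied 3 of the 55 probes at least 2-fold higher at 1 µM, and 0 of its probes were so when 0 µM replicate 2 was left out. Whether other tissue in the sampled liver played a part in any of these lists was not tested.

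**Figure D4:**
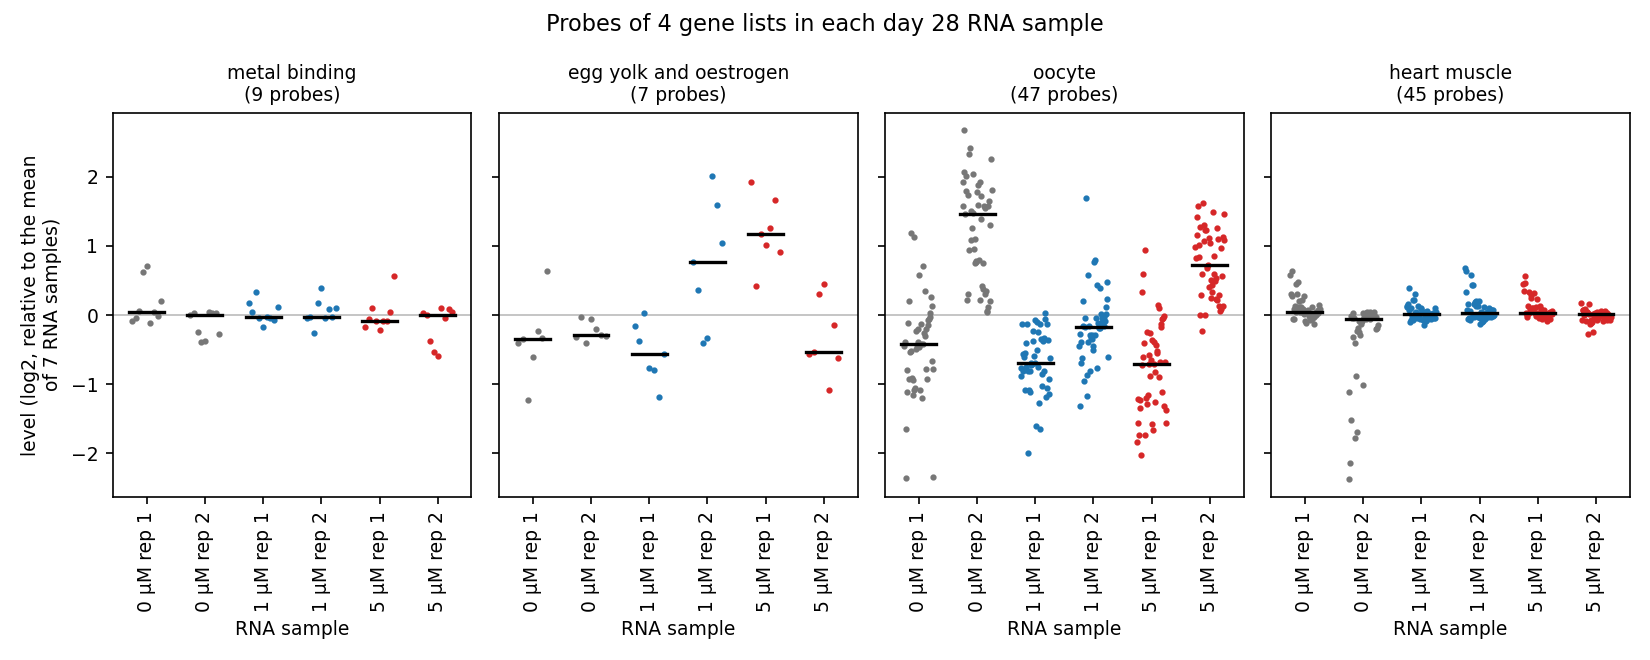
Levels of the probes of 4 gene lists in each RNA sample of day 28, in log2 units relative to the mean of 7 RNA samples. Each point is 1 probe and each bar the median of the list. Metal binding medians lie near 0 in all 6 samples, oocyte probes are high in 0 µM replicate 2 (median 1.46) and some heart muscle probes are low there, while egg yolk probes are high in 1 µM replicate 2 and 5 µM replicate 1.

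Of the 8 arrays, 2 set a 1 µM sample against a 0 µM sample directly, and both used 1 µM replicate 2. It was labelled green against 0 µM replicate 2 and red against 0 µM replicate 1. Turned to 1 over 0 µM, these arrays had a Pearson correlation of -0.311 across probes. At least 2-fold differences on both were seen for 331 probes. In 279 of them the same dye was the brighter on both arrays, red in 263 and green in 16. In the other 52 the direction was the same on both arrays, 31 higher and 21 lower at 1 µM. The same dye is also the brighter when 1 µM replicate 2 lies between the 0 µM replicates. These arrays cannot tell a dye effect from such an order of RNAs. If the RNAs of the array against 0 µM replicate 1 were exchanged, the 279 would share a direction and the 52 would not. Both arrays enter the fit, so the levels of the 52 are in part fixed by how they were picked. With 1 µM replicate 1 included, 33 of the 52 had levels that did not overlap between doses. Over all probes the share without overlap was 12.3% higher and 11.3% lower at 1 µM.

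The 21 lower probes held fosab (-1.80 and -1.59 on one probe, -1.79 and -1.42 on another), zfp36l1b (-1.09 and -1.38) and ucp1 (-1.02 and -1.28). They also held mycb, a Myc transcription factor, at -2.02 and -1.54. It read -0.20 and 0.34 in the 0 µM, -0.77 and -1.71 in the 1 µM and 1.2 and 0.84 in the 5 µM samples. Tsku, a secreted leucine-rich protein, gave -1.36 and -1.10, with levels of 1.12 and 0.62 at 0 µM and -0.92 and -0.36 at 1 µM. The complement component c9 and the pentraxin crp3 were lower on both direct arrays, but 1 µM replicate 1 stood at 0.21 for c9 and 0.29 for crp3, above at least one 0 µM sample. These genes and the next were picked after their values were seen.

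The 31 higher probes held elovl2, stt3a, alg5, lgals3bp.2 and pitpnbl. Stt3a, a catalytic subunit that attaches sugars to new proteins, gave 1.04 and 2.33 on the direct arrays, and alg5, which prepares the sugar donor, gave 1.81 and 1.32. Their 1 µM replicates stood at -0.04 and 1.34 for stt3a and at -0.07 and 1.39 for alg5, so 1 µM replicate 2 alone was high. Lgals3bp.2, a secreted galectin-binding protein, had -0.99 and -0.91 at 0 µM, -0.09 and 0.57 at 1 µM and 1.12 and 0.35 at 5 µM, a change of 1.19 ± 0.34. Pitpnbl, a phosphatidylinositol transfer protein, changed by 1.17 ± 0.33.

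**Figure D5:**
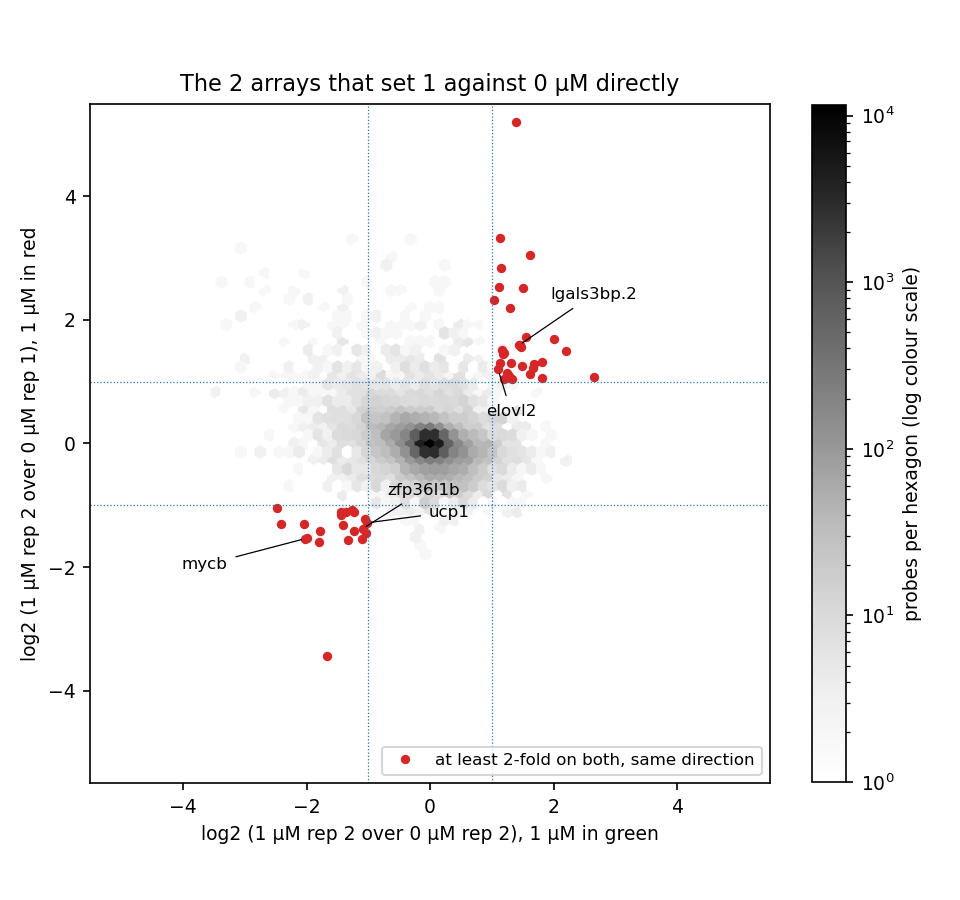
Log2 ratio of 1 over 0 µM for 43603 probes on the direct arrays, with 0 µM replicate 2 (horizontal axis, 1 µM in green) and 0 µM replicate 1 (vertical axis, 1 µM in red) as the partner. Grey hexagons count probes on a log colour scale, dotted lines mark 2-fold and red points are the 52 probes at least 2-fold in the same direction on both. Of the 331 probes past 2-fold on both arrays, 263 lie in the upper left, where the red dye was the brighter on both arrays.

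Many named values moved with the arrays used. The array of 1 µM replicate 2 over 0 µM replicate 1 was the only array left out or exchanged by itself. These settings therefore cannot rank it against the other arrays. Without it grb2b read -0.076 in place of 0.62, tcn2 0.16 in place of 0.52 and oaz2a -1.20 in place of -0.72. With the 5 arrays of the comparison only, oaz2a read -0.018, nme2b.1 0.11 in place of 0.46, amy2al1 0.26 in place of 0.77 and nt5c2b 0.27 in place of 0.44. In that setting tcn2 read 1.04 and grb2b 1.64, and fosab read -0.72 in place of -1.12. Without the array elovl2 read 1.02, zfp36l1b -0.95, fosab -1.40 and ucp1 -0.78, each in the same direction as before. With the RNAs of that array taken as exchanged, elovl2 read 0.29, fosab -0.63, zfp36l1b -0.23 and ucp1 -0.17. Cyp2p6 then read 0.024 and taldo1 0.048, and grb2b and tcn2 changed sign.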

How the data were processed

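The authors deposited 1 log2 ratio per probe and array, for 8 arrays. The submitters' processing notes name limma. Background correction, normalization, log base and direction are stated in none of the sources used here. Log2 of red over green was taken as likely from limma's usual output and the order of the titles. No value was missing, and no spot intensities were used here, so dim probes were not removed. The number of arrays limits the precision.

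Probe genes came from the platform annotation, which can be old. Of 43603 probes, 23717 had 1 gene, 0 several and 19886 none, and 23534 matched a RefSeq gene ID (assembly GRCz12tu).

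Levels of the 7 RNA samples and 1 dye term were fitted per probe by least squares, which left 1 residual degree of freedom. Limma 3.58.1 in R 4.3.3 (lmFit, eBayes) then tested those levels, with 1 coefficient per condition and 3 residual degrees of freedom, two-sided. This treats the levels as independent samples, although they share arrays and a dye term. The SEs, intervals and p-values carry no allowance for that. P-values were adjusted by Benjamini and Hochberg's method over the 43603 probes and called under 0.05. The fit was run on seeded artificial data with independent RNA samples, where the only condition set was that the mean change be recovered.

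Named genes were the 10 in each direction with the smallest p among probes with 1 gene and doses that did not overlap, with the members of the lists. Members, lists and tests were chosen with earlier results of these data known. The oocyte, heart muscle, immediate early, fatty acid elongation and P450 lists were written after the values were seen.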

Additional observations from a re-analysis of the deposited data

How the results depend on the processing

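With 2 RNA samples a dose, 0 probes passed at an adjusted p under 0.05 for 1 against 0 µM and for 5 against 1 µM in these settings. They were array-level fits, no dye term, median centring, equal array spread, array weights, arrays left out and the more variable probes only. An adjusted p under 0.10 was applied to the main fit only and also gave 0. In the array-level limma fits elovl2, at adjusted p of 0.0777 and 0.0774, would pass at 0.10. Those fits make little or no allowance for RNA samples used on several arrays, although the replicate is the RNA sample. With replicate number as a block limma also called 0 probes, with 1151 at an unadjusted p under 0.05 in place of 573. Same-numbered deviations from the dose means correlated at -0.0559 for 0 and 1 µM, 0.627 for 0 and 5 µM and -0.0156 for 1 and 5 µM. The levels behind them share arrays and a dye term, so these correlations cannot show whether the numbers pair the samples.

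Counts by size were less stable. Probes at least 2-fold higher numbered 508 with the 5 arrays of the comparison only and 61 to 214 with 1 sample or the array of 1 µM replicate 2 over 0 µM replicate 1 left out, in place of 55. Those at least 2-fold lower numbered 515 without that array, 394 if its RNAs were exchanged and 134 to 638 with 1 sample left out, in place of 194. Probes with doses that did not overlap numbered 12279 without that array and 25547 to 29758 with 1 sample left out, since 1 dose then had a single sample, in place of 10296. The array-level fits give no levels per sample and so no such count. The replicate correlation of -0.223 became -0.0441 with equal array spread, 0.0976 with the 5 arrays only, 0.0684 without that array and -0.0705 with its RNAs exchanged. With equal array spread 34 probes were at least 2-fold in the same direction on both direct arrays, in place of 52. The causes were not tested.

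All named probes but those of grb2b and tcn2 kept their sign in the settings run for them, but some came close to 0: oaz2a at -0.018 with the 5 arrays only, and cyp2p6 at 0.024 and taldo1 at 0.048 with the RNAs of that array exchanged. Grb2b read -0.076 without that array, 0.72 without 1 µM replicate 1, 1.64 with the 5 arrays only, and -0.25 with its RNAs exchanged, while tcn2 read -0.033. For the gene lists, leaving out samples or that array was chosen after seeing the data. In all settings, leaving out a sample dropped its fitted levels only, and the other levels still came from all 8 arrays. The smallest adjusted p for 1 against 0 µM over these settings ran from 0.0774, for elovl2 in the plain array-level fit, to 1.00.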
